A study of Mus musculus with 30 samples.

Results

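CpG methylation was compared between 1 wild-type and 1 Gzf1 knockout library of adult mouse tail at each of 2 amplicons of the imprinted Dlk1-Dio3 domain. The libraries were chosen by their labels, and these 4 are part of a series of 30. The first amplicon is the CpG island of the intergenic differentially methylated region (IG-CGI, 29 CpGs). The second is the Gtl2-DMR (15 CpGs), the differentially methylated region at Meg3, the long non-coding RNA gene also called Gtl2. DNA was converted with bisulfite, amplified by nested PCR and read as amplicons on the Oxford Nanopore platform. The 2 genotypes are adult tail labelled wild type and adult tail labelled Gzf1 knockout. They are set beside tails of heterozygous mice with a maternal Gzf1 knockout, and beside wild-type and Gzf1 knockout DNA of E10.5 embryo trunk and of V6.5 mouse embryonic stem cells (mESC). The labels used here give no age in weeks, sex, strain or knockout allele, and no treatment. In the submitters' naming both knockout libraries carry the number 12 and both wild-type libraries the number 13, so each genotype appears to rest on 1 mouse read at both amplicons. The title of the knockout Gtl2-DMR library holds both genotypes, while its genotype label and its library name give knockout only. Below it is called the library labelled knockout. Nothing in these files checks its genotype, so no change and a wild-type library under that label cannot be told apart.

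Imprinted genes are expressed from one parental copy, and differentially methylated regions carry the mark that tells the copies apart. In the Dlk1-Dio3 domain the intergenic region is the control element. It is methylated on the paternal copy from the germ line onwards, while the Gtl2-DMR acquires its paternal methylation after fertilisation and depends on the intergenic region. Meg3 is transcribed from the maternal, unmethylated copy. Zfp57 is a zinc finger protein that binds its motif when methylated and keeps imprints in the early embryo. Gzf1 is another zinc finger protein, and the series asks how it and Zfp57 share this domain. Bisulfite reads cannot separate 5-methylcytosine from 5-hydroxymethylcytosine, and the reads analysed here were not assigned to a parental copy.

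The Gtl2-DMR amplicon could be placed on the genome by the spacing of its CpGs. Of 32851 promoter windows of the RefSeq set of GRCm38.p6 (the assembly that mm10 denotes), a single window held CpGs at the spacing of the amplicon, and none did in the reverse orientation. It is the window around the start of Meg3, chr12:109540746-109541045 on the plus strand, where all 13 CpGs coincide with CpGs 33 to 296 of the amplicon. The sequence is shown because it is the regulatory stretch whose methylation is compared below, with the CpGs in capitals.

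Meg3 start: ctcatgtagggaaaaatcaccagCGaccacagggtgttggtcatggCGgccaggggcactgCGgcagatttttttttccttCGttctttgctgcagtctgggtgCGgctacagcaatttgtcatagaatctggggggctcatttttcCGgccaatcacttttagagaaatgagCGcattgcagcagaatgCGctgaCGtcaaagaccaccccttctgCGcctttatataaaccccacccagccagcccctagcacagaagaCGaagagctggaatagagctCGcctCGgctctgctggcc

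Meg3 spans 109540996 to 109571729 of chromosome 12, and its first base lies at position 260 of the amplicon. Thus 10 of the 15 CpGs lie upstream of the gene, from CpG 33 at 109540769 (227 bases before the start) to CpG 227 at 109540963. The other 5 lie inside the gene, from CpG 271 at 109541007 to CpG 339 at 109541075. CpGs 334 and 339 lie past the end of the window, and their coordinates follow from the same offset. The Zfp57 motif, written TGCCGC and searched on both strands, occurs once in the window, on the minus strand at 109540806 to 109540811, and its CpG is CpG 71. Of all windows, 11.6% hold that motif. The IG-CGI was not placed on the genome here, and its CpGs are numbered along the amplicon reference.

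The 2 amplicons differed in depth. The IG-CGI libraries held 1741 wild-type and 1529 knockout reads, with a median of 29 calls per read in each. The Gtl2-DMR libraries held 160 and 123 reads, with a median of 12 calls per read. At the Gtl2-DMR the calls per CpG fell along the amplicon, from 155 to 65 in wild type and from 120 to 56 in the library labelled knockout. The read names carry a code that is taken here, and below, as the sequencing order. By that code both genotypes of an amplicon came from the same order, and the 2 amplicons from different orders. With 1 library per genotype, the intervals and Fisher's exact tests below compare libraries and have no replicate check. Since PCR copies of a molecule could not be recognised, they cover counting error only. The calls of a read are also linked, so tests at neighbouring CpGs are not independent.

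The IG-CGI of the knockout tail was methylated at a higher level at every CpG of the amplicon, while no CpG of the Gtl2-DMR passed the test. Over the 29 CpGs of the IG-CGI the mean level was 51.9% in wild type (95% interval 49.9 to 53.9) and 80.6% in the knockout (79.2 to 82.0). Unmethylated calls thus made up a fraction smaller by 59.6% of its wild-type size. Over the 15 CpGs of the Gtl2-DMR it was 51.2% (44.6 to 57.7) in wild type and 48.3% (40.8 to 55.8) in the library labelled knockout. The wild-type levels of the 2 amplicons lay within each other's intervals, near equal shares of methylated and unmethylated calls. The knockout levels lay far apart.

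The change, knockout minus wild type, was 28.7 points at the IG-CGI (26.3 to 31.1) and -2.87 points at the Gtl2-DMR (-12.8 to 7.09). The difference between the 2 changes was 31.6 points (95% interval over reads 21.3 to 41.8). Computed from the methylated percentage of each read with 5 or more calls, the 2 changes were 28.5 and -2.38 points, and their difference was 30.9 points (20.8 to 41.0). The upper bound at the Gtl2-DMR, 7.09 points, lies below the lower bound at the IG-CGI, 26.3 points. Both bounds cover counting error only, and an effect of the lower depth beyond counting error was not tested. Changes within the interval at the Gtl2-DMR, from a fall of 12.8 points to a rise of 7.09 points, were not resolved at this depth. Amplicon, PCR and sequencing order cannot be told apart in this contrast.

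CpG by CpG, all 29 CpGs of the IG-CGI were called higher in the knockout, which is 100% of those tested. A call required an adjusted p under 0.05 by Fisher's exact test with Benjamini-Hochberg adjustment and a difference of at least 20 points. The adjusted p ranged from 1.12e-93 to 3.86e-33. The differences ran from 21.1 to 35.4 points with a median of 28.9, and none of the 95% intervals reached below 17.7 points. Of them, 11 passed a stricter minimum of 30 points. Counting identical read patterns once left 28 CpGs called. Both libraries kept a similar profile along the amplicon. Across the 29 CpGs the knockout level followed the wild-type level (Pearson r = 0.76, a description across CpGs that share reads and library).

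**Figure D1:**
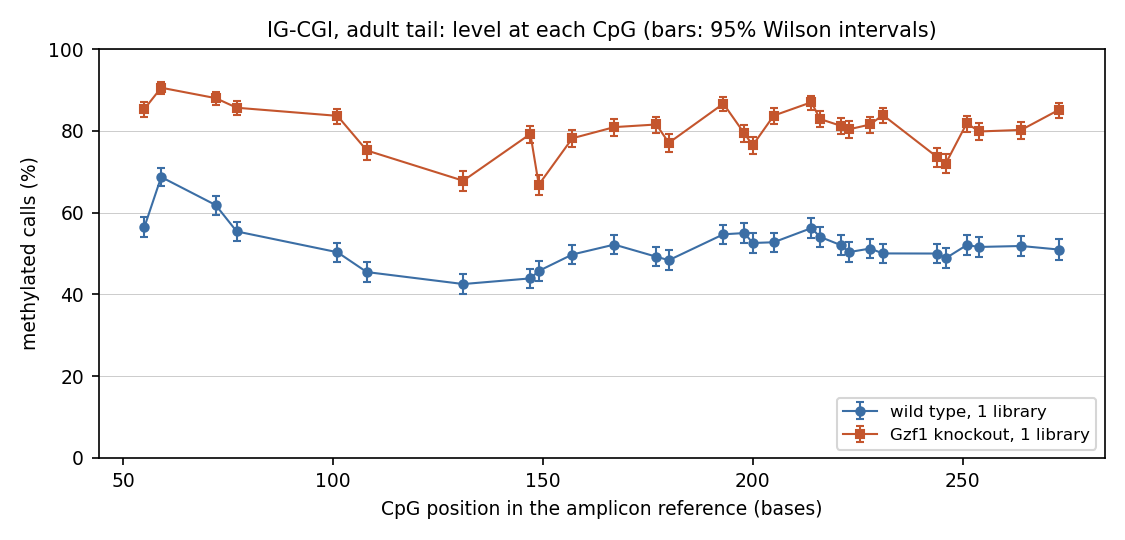
Percentage of methylated calls (vertical axis) at each of the 29 CpGs of the IG-CGI, by position in the amplicon reference in bases, for the wild-type (blue circles) and the Gzf1 knockout (orange squares) tail library, with 95% Wilson intervals. The knockout lies above wild type at every CpG, by 21.1 points at CpG 149 to 35.4 points at CpG 147.

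The first CpGs of the IG-CGI were among the most methylated in both genotypes, and CpG 214, further along, was close to them at 56.2% and 87.0%. The first CpG, CpG 55, went from 56.5% in wild type to 85.4% in the knockout. CpG 59 was the most methylated CpG in both libraries, with 68.7% of wild-type and 90.6% of knockout calls, a difference of 21.9 points. CpG 72 and CpG 77 had wild-type levels of 61.9% and 55.4%, and knockout levels of 88.0% and 85.7%. From there the wild-type level declined to a trough. CpG 101 was at 50.3% and CpG 108 at 45.5%, and CpG 131 had the lowest wild-type level, 42.5%.

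In the knockout this trough was uneven. CpG 131 reached 67.8%, whereas CpG 147, next to it, went from 43.9% to 79.3%, the largest rise of the amplicon. CpG 149 lies 2 bases further and had the smallest rise, from 45.7% to 66.8%, which left it the least methylated CpG of the knockout. The difference in change between these neighbours was 14.3 points, the largest of the 28 neighbouring pairs, whose median was 3.61 points. The 2 CpGs were picked as the extremes of the change in these same reads. A large step, and reads that differ at them, follow in part from that choice. On reads called at both, methylation of CpG 147 without CpG 149 was found on 1.66% of the wild-type reads (Wilson 1.15 to 2.39) and on 14.2% in the knockout (12.5 to 16.1). The opposite state, CpG 149 methylated alone, made up 3.38% and 1.82%. The reads that differ at these CpGs were thus mainly knockout reads methylated at CpG 147 and not at CpG 149. In wild type the 2 CpGs carried the same call on nearly all reads, with 42.3% methylated at both and 52.7% at neither.

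From CpG 157 on, wild-type levels lay close to 50% and the knockout differed more from CpG to CpG. Over CpGs 167 to 216 the mean went from 52.8% to 81.8%, and over CpGs 221 to 273 it was 50.9% in wild type and 29.1 points higher in the knockout. The change was about the same in the 3 blocks of the amplicon, at 28.1 points over CpGs 55 to 157, 29.0 over CpGs 167 to 216 and 29.1 over CpGs 221 to 273. Within the last block CpG 231 went from 830 of 1659 calls methylated to 83.9%. Its next neighbours rose less, CpG 244 from 829 of 1658 calls to 73.6% and CpG 246 from 48.9% to 72.0%. The last CpG, CpG 273, went from 51.0% to 85.2%. CpGs 231, 244 and 246, and the CpGs named above beside the extremes and ends, were chosen after their values were seen.

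At the Gtl2-DMR no CpG was called higher or lower, 0% of the 15 tested in each direction. Fisher's exact test gave no unadjusted p under 0.05, and the lowest was 0.160. By value 4 CpGs were higher and 11 lower in the library labelled knockout, with a median difference of -1.98 points. The upper 95% bound of the difference lay between 3.33 and 18.4 points, below the smallest difference of the IG-CGI (21.1 points) at all 15 CpGs. The lower bound reached -23.2 points at CpG 227, so a fall of some size at a single CpG was not resolved.

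The 2 libraries traced nearly the same profile around the start of Meg3. The first CpG, CpG 33, was the least methylated in wild type, with 37.9% against 39.2% in the library labelled knockout. CpG 71, which lies in the Zfp57 motif shown above, was at 51.6% and 52.1%. CpG 227, the last CpG before the gene, was the most methylated in wild type and had the largest difference, with 61.7% against 51.6%. Its neighbours, CpG 206 and CpG 271, were named after their values were seen. They were at 60.2% against 50.5% and at 58.9% against 50.5%. Inside the gene, CpG 291 had the largest value in the other direction, 54.7% against 58.7%. CpG 334 was low in both, at 40.9% and 37.5%, and the last CpG, CpG 339, was at 53.8% and 52.6%. Each of these pairs lay within counting error.

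**Figure D2:**
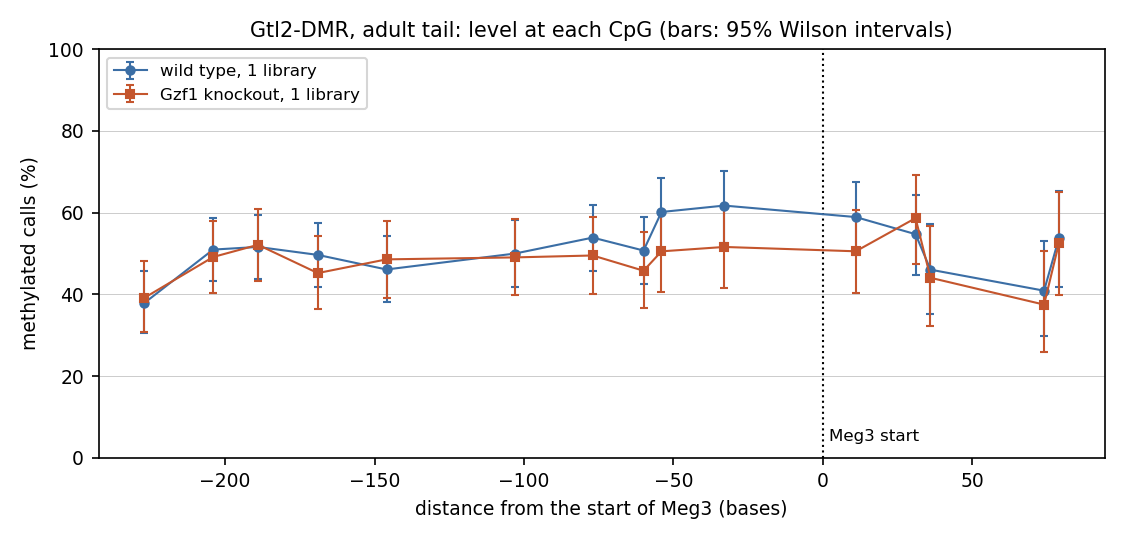
Percentage of methylated calls (vertical axis) at each of the 15 CpGs of the Gtl2-DMR, by distance from the start of Meg3 in bases (dotted line at 0), for the wild-type (blue circles) and the labelled Gzf1 knockout (orange squares) tail library, with 95% Wilson intervals. The 2 profiles overlap, and both have their lowest levels near the ends, at 37.9% and 37.5%.

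The change was close in value on both sides of the Meg3 start, with wide intervals, and the sides were not tested against each other. Over the 10 upstream CpGs the mean was 51.3% in wild type and 48.1% in the library labelled knockout, a change of -3.20 points (95% interval -13.2 to 6.75). Over the 5 CpGs inside the gene it was 50.9% and 48.7%, a change of -2.21 points (-16.1 to 11.7). Reads with at least 3 calls on each side mostly had the same state on both. Of 76 such wild-type reads 23 were mostly methylated and 26 mostly unmethylated on both sides, and of 59 reads labelled knockout 20 and 24. Reads that switched state across the start were found in both libraries. They numbered 7 of the 76 in wild type, 4 of them methylated inside the gene only, and 8 of the 59 in the library labelled knockout, 5 of them methylated inside the gene only.

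The IG-CGI libraries also differed in their single reads. The commonest patterns among reads called at every CpG are printed with Z for a methylated and z for an unmethylated CpG, from the first CpG to the last, because they show which molecules the means are made of.

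IG-CGI wild type, rank 1: ZZZZZZZZZZZZZZZZZZZZZZZZZZZZZ
IG-CGI wild type, rank 2: zzzzzzzzzzzzzzzzzzzzzzzzzzzzz
IG-CGI wild type, rank 3: zZzzzzzzzzzzzzzzzzzzzzzzzzzzz
IG-CGI knockout, rank 3: ZZZZZZzZZZZZZZZZZZZZZZZZZZZZZ
Gtl2-DMR knockout, rank 3: ZZZZZZZZZZzzzzz

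Of 1339 wild-type reads of the IG-CGI, 245 were methylated and 137 unmethylated at every CpG, and the third pattern, with CpG 59 alone methylated, had 52 reads. Of 1220 knockout reads the fully methylated pattern had 272, the fully unmethylated one 40, and the third, 27 reads, lacked methylation at CpG 131 alone. At the Gtl2-DMR the fully unmethylated pattern came first in both libraries, with 15 of 56 wild-type reads and 13 of 48 reads labelled knockout. The fully methylated pattern followed with 8 and 4. The third pattern had 2 reads in each library. In wild type it lacked methylation at CpG 334 alone, and in the library labelled knockout it was methylated at every CpG before the gene and at none inside it. Other patterns of the Gtl2-DMR also had 2 reads, so this rank carries little weight.

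The methylated percentage of a read had 2 peaks in wild-type IG-CGI reads, near 0 and near 100, and the lower peak was small in the knockout. Of 1731 wild-type reads with at least 5 calls, 782 were mostly methylated, with 70% or more of their calls methylated, 762 were mostly unmethylated, with 30% or fewer, and 187 lay between. Of 1519 knockout reads the numbers were 1205, 144 and 170. Mostly methylated reads thus went from 45.2% to 79.3%, a difference of 34.2 points (95% interval 31.0 to 37.2). Mostly unmethylated reads went from 44.0% to 9.48%, a difference of -34.5 points (-37.3 to -31.7). The class between held 10.8% and 11.2%, a difference of 0.389 points (-1.76 to 2.56). The median read had 51.7% of its calls methylated in wild type and 92.9% in the knockout.

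The Gtl2-DMR libraries both showed an even split of reads. Mostly methylated reads made up 56 of 142 wild-type reads and 41 of 109 reads labelled knockout, or 39.4% and 37.6%, a difference of -1.82 points (-13.7 to 10.3). Mostly unmethylated reads made up 38.7% and 42.2%, a difference of 3.47 points (-8.60 to 15.6). Reads between the bounds made up 21.8% and 20.2%. The upper bound for mostly methylated reads, 10.3 points, lay below the lower bound at the IG-CGI, 31.0 points.

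**Figure D3:**
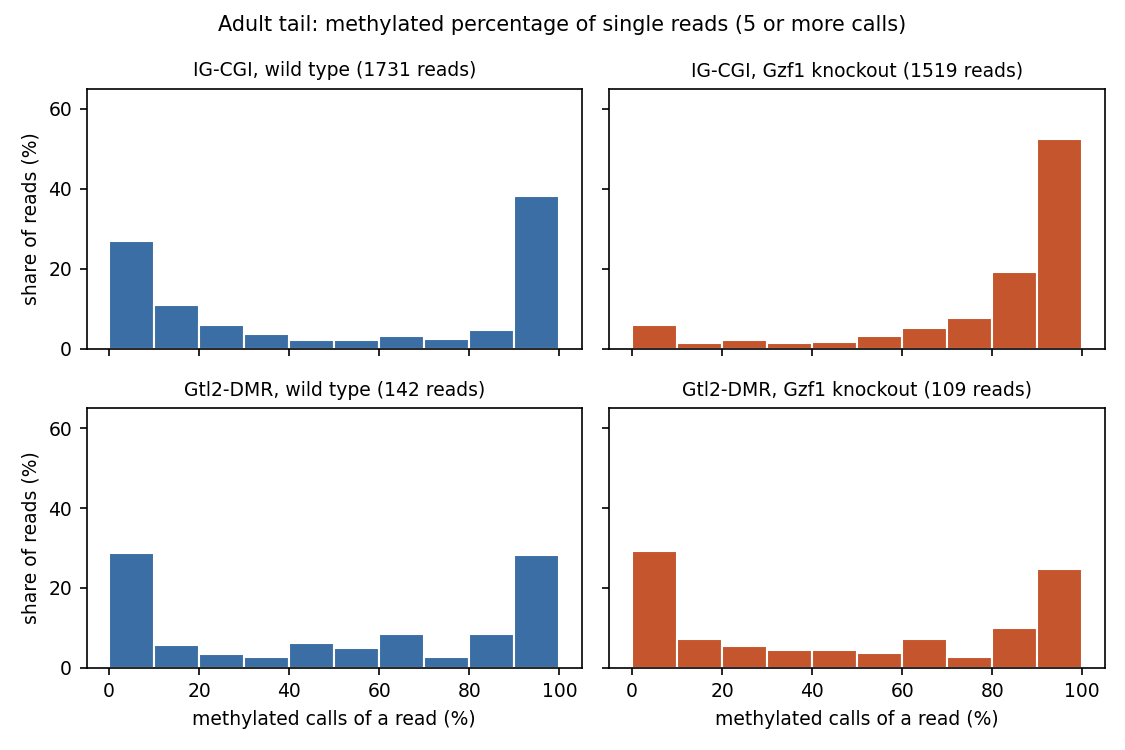
Share of reads (vertical axis, percent) by the percentage of their calls that were methylated (horizontal axis, bins of 10 points), for reads with at least 5 calls in each of the 4 tail libraries. In the IG-CGI the lowest bin holds 27.0% of wild-type and 5.99% of knockout reads, and in the Gtl2-DMR 28.9% and 29.4%.

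The excess of mostly methylated IG-CGI reads in the knockout library lay mainly in reads that were not fully methylated. The share of fully methylated reads was 19.7% in wild type (Wilson 17.9 to 21.6) and 23.2% in the knockout (21.1 to 25.4), a difference of 3.47 points (0.649 to 6.31). Reads that were mostly but not fully methylated went from 25.5% to 56.2%, a difference of 30.7 points (27.4 to 33.9). Within the mostly methylated class the mean was 95.5% ± 6.21 over 782 wild-type reads and 92.8% ± 7.43 over 1205 knockout reads (SD over reads, a description of classes that the calls themselves define). Fully unmethylated reads numbered 182 of 1731 in wild type and 46 of 1519 (3.03%) in the knockout.

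The unmethylated calls within mostly methylated reads were spread unevenly over the CpGs, in part at the same CpGs in both libraries. Their median share over the 29 CpGs was 3.69% in wild type and 5.77% in the knockout. CpGs 131, 108 and 149 had the highest shares in wild type and were also high in the knockout, with CpG 108 going from 9.45% to 12.6%. In wild type the share of unmethylated calls exceeded 10% at 1 of the 29 CpGs, CpG 131 (11.8%). In the knockout it exceeded 10% at 6 CpGs, with the highest shares at CpG 149 (19.6%), CpG 131 (17.9%) and CpG 246 (16.0%). The largest increases were at CpG 149, from 8.17% to 19.6%, CpG 246, from 5.48% to 16.0%, and CpG 244, from 3.21% to 12.5%. The share was higher in the knockout at 19 CpGs and lower at 10. Among the latter were the first 5 CpGs, with CpG 59 going from 4.34% to 1.18% and CpG 72 from 7.33% to 3.30%.

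**Figure D4:**
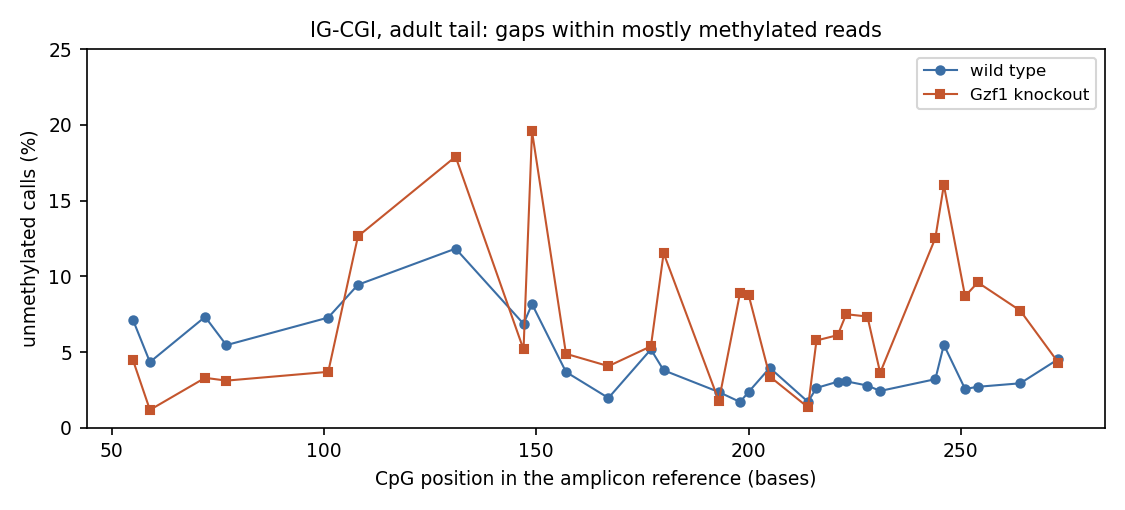
Percentage of unmethylated calls (vertical axis) at each CpG of the IG-CGI, by position in the amplicon reference in bases, within reads that had at least 70% of their calls methylated, for wild type (blue circles, 782 reads) and the Gzf1 knockout (orange squares, 1205 reads). The knockout peaks at CpG 131 (17.9%), CpG 149 (19.6%) and CpG 246 (16.0%), and lies below wild type at the first 5 CpGs.

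Mostly unmethylated reads of the IG-CGI were far fewer in the knockout library, with a similar mean and a profile that differed at some CpGs. Their mean was 8.37% ± 7.95 over 762 wild-type reads and 9.05% ± 9.40 over 144 knockout reads (SD over reads). At the first CpGs stray methylation was high in both. CpG 59 was methylated in 39.6% of calls in such wild-type reads and in 27.9% in such knockout reads, and CpG 72 in 27.7% and 21.3%. Over the 25 CpGs from CpG 101 on, the median was 5.36% and 4.90%, and the highest value was 12.6% at CpG 214 in wild type and 20.3% at CpG 216 in the knockout. The knockout reads had further high values at some CpGs of the far end of the amplicon. CpG 216 went from 7.74% in wild type to 20.3%, CpG 251 from 5.28% to 18.2%, CpG 264 from 6.71% to 19.7% and CpG 273 from 6.16% to 16.9%. CpG 198 fell, from 10.6% in wild type to 0 of 143 calls in the knockout (upper Wilson bound 2.62%). Of the 29 CpGs, the Wilson interval of the knockout lay above that of wild type at 7, below it at 5 and overlapped it at 17. These CpGs were named after their values were seen, and the classes are defined by the calls themselves. The intervals were not adjusted over the CpGs. PCR copies among the 144 knockout reads could not be recognised, and their share in this profile was not tested. CpG 147 was methylated in 6 of 756 wild-type and 1 of 143 knockout calls.

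Among the tails, only the heterozygous ones come from several animals of the same genotype, so they give the spread between animals used here. They come from 5 mice that the labels call heterozygous with the Gzf1 knockout inherited from the mother, read at the IG-CGI. The titles call these animals adult mice, whereas their group label and library names call them pups. Their mean levels were 47.0%, 53.4%, 46.9%, 47.0% and 48.5%, with a mean of 48.6% ± 2.78 (SD, n = 5). The knockout tail, at 80.6%, lay 32.0 points above that mean, and its level at each of the 29 CpGs was above all 5 animals, by 19.7 to 32.2 points over the highest. The wild-type tail lay within the range of the 5 animals at 27 CpGs and above it at 2. An exact two-sided permutation test of the knockout tail against the 5 animals gave p = 0.167, the smallest that 1 against 5 allows. These animals differ from the knockout and wild-type tails in genotype and sequencing order, and their age is given in both ways above. For the Gtl2-DMR there is no such measure of spread between animals.

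The tail differed from 2 other sources of Gzf1 knockout DNA in the change at the Gtl2-DMR. In trunk from E10.5 embryos the change was 30.8 points (95% interval 19.7 to 41.9), which exceeded the change in tail by 33.7 points (18.7 to 48.6). In mESC it was 24.7 points (12.4 to 37.0), and exceeded that in tail by 27.6 points (11.7 to 43.4). The wild-type levels of the Gtl2-DMR were 51.2% in tail, 58.0% in trunk and 54.7% in mESC. The levels labelled knockout were 48.3%, 88.8% and 79.4%. These Gtl2-DMR libraries were shallow, with 64 wild-type and 69 knockout reads in trunk and 60 and 119 in mESC. In trunk both genotypes came from 1 sequencing order, whereas in mESC wild type and knockout came from different orders at each amplicon, so genotype and order cannot be told apart there. With reads of identical pattern counted once, the difference between mESC and tail was 17.4 points (0.187 to 34.7).

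The gap between the IG-CGI and the Gtl2-DMR was also wider in tail than in trunk and mESC. The change at the IG-CGI minus that at the Gtl2-DMR was 10.03 points in trunk (-1.40 to 21.5) and 8.97 points in mESC (-3.66 to 21.6), against 31.6 points in tail. The gap in tail exceeded that in trunk by 21.5 points (6.20 to 36.9) and that in mESC by 22.6 points (6.33 to 38.9), a comparison added after the values were seen. The IG-CGI itself also changed less in tail, by 12.1 points against trunk (8.62 to 15.6) and 4.96 points against mESC (1.20 to 8.71). With identical patterns counted once these 2 differences turned to -3.12 (-7.81 to 1.56) and -12.8 points (-17.9 to -7.74), so no order of the sources at the IG-CGI is read from them. CpG 149 stayed below CpG 147 in those knockout libraries too, at 76.0% against 83.3% in trunk and 63.5% against 73.1% in mESC. The wild-type libraries of these sources had the same order with a smaller gap, at 39.0% against 43.8% in trunk and 34.4% against 35.7% in mESC, while in wild-type tail CpG 149 lay above CpG 147, at 45.7% against 43.9%. These gaps were not tested against each other.

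**Figure D5:**
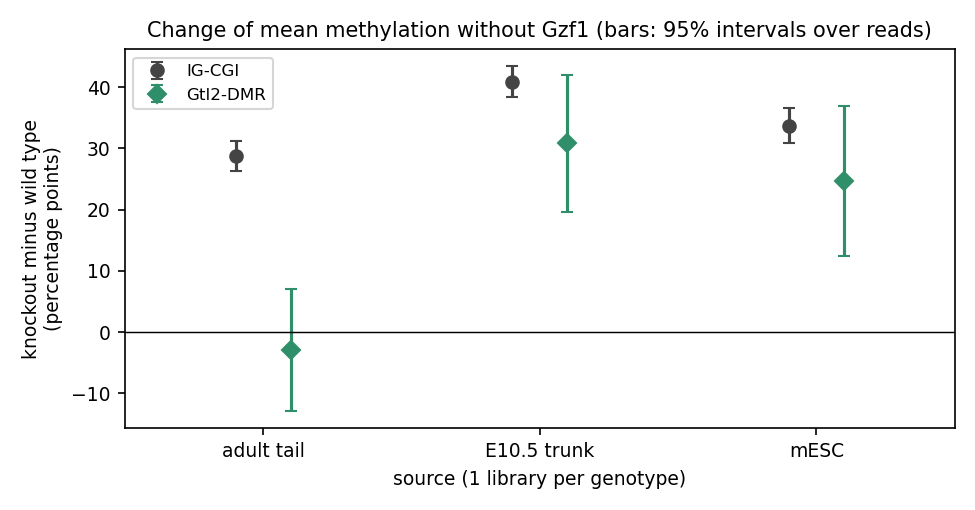
Change of mean methylation, knockout minus wild type, in percentage points (vertical axis) at the IG-CGI (grey circles) and the Gtl2-DMR (green diamonds) in adult tail, E10.5 trunk and mESC, with 1 library per genotype and 95% intervals over reads. The Gtl2-DMR of tail, at -2.87 points, is the single value whose interval includes 0.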

How the data were processed

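The files were deposited by the authors as 1 methylated or unmethylated call per read and CpG of the original top strand, from Bismark's methylation extractor (0.22.3, per the file headers). Bismark 0.24.2 and mm10 stand in the submitters' processing notes. How reads were filtered and aligned is not given in the sources used here, and with CpG calls alone the conversion rate was not measured.

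A position was taken as a CpG of an amplicon where any library had a call on 10% or more of its reads. Levels are means over CpGs that have 10 or more calls in both, and their 95% intervals are Wald intervals with the variance linearised over whole reads. Shares have Wilson intervals and differences of shares Newcombe intervals. Named CpGs are those with the largest and smallest difference, the highest and lowest level in each library, and the first and last, and named patterns the 3 commonest. The libraries and comparisons were chosen with earlier results of these data known. Promoter sequences and gene coordinates are from RefSeq, GRCm38.p6. Python 3.11.15, numpy 2.4.6, scipy 1.17.1 and matplotlib 3.10.9 were used.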

Additional observations from a re-analysis of the deposited data

Results flagged for a closer look

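The difference between libraries labelled Gzf1 knockout and wild type at the Gtl2-DMR was unequal among the sources, differing by 33.7 points between trunk and tail and by 27.6 points between mESC and tail, each with an interval over reads that leaves out 0. The change at the IG-CGI differed by 12.1 points between trunk and tail and by 4.96 points between mESC and tail. Each source had 1 library per genotype, and the title of the tail library labelled knockout holds both genotypes. Among the 5 heterozygous tails the animal with the highest IG-CGI level, 53.4%, stood apart from the next, 48.5%, by more than Dixon's criterion allows, which chance alone exceeds in about 1 group of 20.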

How the results depend on the processing

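Of 85 alternatives over 15 results, 82 kept direction and side of the threshold or stayed within the limits set for a count or a level. With a minimum difference of 30 points, 11 CpGs of the IG-CGI were called in place of 29. With identical read patterns counted once, the difference in the IG-CGI change turned to -3.12 points between trunk and tail and to -12.8 points between mESC and tail, and the cause was not tested. The difference between the 2 amplicons in tail ranged from 31.5 to 32.4 points over its alternatives by mean level, and from 31.6 to 35.0 points by percentage per read (30.9 as reported). Counting calls at every position left the values as they were, since no other position had the calls required. Leaving out each heterozygous animal in turn gave 31.6 to 33.2 points for the knockout tail against the rest. No paired analysis was possible because each genotype and amplicon of tail has 1 library. Depth limits the Gtl2-DMR, where the median width of the interval of a CpG's difference was 24.9 points, against 6.21 at the IG-CGI.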
